A study of Mus musculus with 121 samples.

Results

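Complement is a system of blood and tissue proteins that marks dying cells, immune complexes and microbes for uptake and lysis. Its genes C1qa, C1qb, C1qc, C2, C3, Cfb and Serping1 were followed across 6 transplanted mouse tumours after gamma rays or carbon ions. A probe was taken for a gene where its deposited annotation gave that gene's symbol alone. Each of 6 genes was matched by 1 such probe, with values on 118 to 121 of the 121 arrays, and these are 6 of the 12962 genes tested. C3 was not analysed here. By mean brightness the percentile among the tested genes was 98.8 for C1qb, 97.9 for C1qc, 96.5 for C1qa, 85.3 for Serping1 and 82.2 for Cfb. C2 was dim, at percentile 13.9, and on several carcinoma arrays lay close to the floor of 0.1269 under which values were not resolved.

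As background, the classical pathway starts when C1q, a hexamer of trimers built from the C1qa, C1qb and C1qc chains, binds a target and activates the proteases C1r and C1s. These cleave C4 and C2, and the C2 fragment becomes the protease of the classical C3 convertase. Factor B, the product of Cfb, is the counterpart of C2 in the alternative pathway, which amplifies C3 cleavage. Serping1 encodes the C1 inhibitor, a serpin that inactivates C1r, C1s and proteases of the kinin system. Most plasma complement is made in the liver, whereas C1q is made mainly by macrophages and other myeloid cells. C2, factor B and the C1 inhibitor are also made by macrophages, fibroblasts and epithelial cells, and interferons are known to induce all 3.

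In the RefSeq gene table (GRCm38.p6), C1qb, C1qc and C1qa are direct neighbours on chromosome 4, Cfb and C2 are direct neighbours on chromosome 17, and Serping1 lies on chromosome 2. The RefSeq promoter table held 2 of the 6 measured genes, both from the C1q cluster, whose expression rose and fell together here. Their windows, from 250 bases before to 50 bases after the start, are shown with capitals marking the letters GAGGAA on either strand, the core bound by PU.1, a transcription factor of myeloid cells. C1qb is at chr4:136886151-136886450 and C1qc at chr4:136892865-136893164, both read from the minus strand.
C1qb: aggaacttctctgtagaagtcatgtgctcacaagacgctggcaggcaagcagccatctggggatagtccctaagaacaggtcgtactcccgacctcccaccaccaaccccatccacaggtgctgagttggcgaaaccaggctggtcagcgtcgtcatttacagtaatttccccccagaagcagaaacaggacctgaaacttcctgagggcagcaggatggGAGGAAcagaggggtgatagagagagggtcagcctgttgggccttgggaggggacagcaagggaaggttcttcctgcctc
C1qc: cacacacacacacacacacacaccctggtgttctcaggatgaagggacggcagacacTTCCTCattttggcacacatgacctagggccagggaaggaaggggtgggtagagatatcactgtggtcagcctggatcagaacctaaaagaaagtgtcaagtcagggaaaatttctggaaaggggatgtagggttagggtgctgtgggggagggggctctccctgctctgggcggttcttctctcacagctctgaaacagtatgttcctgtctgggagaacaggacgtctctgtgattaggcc
The core lay at bases 221 to 226 of the C1qb window, on the strand shown and -30 from the start. In the C1qc window it lay at bases 58 to 63, -193 from the start and on the opposite strand, so that it reads TTCCTC. Of 32851 promoter windows of this length, 28.3% held the core, so a match in both is a description and not evidence of binding. The interferon-response motif, GAAA repeated after any 2 bases (3.44% of windows) and searched on both strands, had no match in either window. An NF-kB motif, held by 8.46% of windows, matched in C1qc at bases 210 to 219 and not in C1qb.

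The tumours grew in the hind legs of male C3H/HeMs mice, and the leg was irradiated locally with a single dose. Of the 6 tumours, the labels call 1 a radiation-induced fibrosarcoma of a C3H mouse and the other 5 spontaneous tumours of C3H/He mice: nfsa is given as a fibrosarcoma, mmca and mca4 as mammary carcinomas, and scc7 and nrs1 as squamous cell carcinomas. RNA of whole dissected tumour was hybridised to 1-colour arrays. On the 81 gamma arrays, the fibrosarcomas and mammary carcinomas were sampled unirradiated and at day 1 after 30, 50 or 70 Gy, with 2 arrays per group. Later groups held 2 or 3 arrays. The radiation-induced fibrosarcoma was sampled at days 8 and 16 after 30 Gy and day 22 after 50 Gy, nfsa at days 4 and 9 after either dose, mmca at day 9 after 30 Gy and day 19 after 50 Gy with its own unirradiated arrays of day 9, and mca4 at day 11 after 30 Gy and days 25 and 41 after 50 Gy. Gamma arrays of scc7 (day 8 after 30 Gy, days 23 and 35 after 50 Gy) and nrs1 (day 8 after 30 Gy, day 15 after 50 Gy) had no unirradiated partner. On the 40 carbon arrays, with a dose of 30 Gy and 2 arrays per group, mmca and mca4 were sampled unirradiated and at 6 h and days 1, 3, 5 and 20, and the other 4 tumours at day 5 and at day 20 (day 42 for scc7) without unirradiated arrays. The labels do not say whether arrays of a group come from separate animals, so the p values rest on array-to-array spread that may be technical.

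Some features of the arrays bear on every result. The median intensity of an array ran from 1.31 to 1.85 on gamma arrays and from 1.04 to 1.07 on carbon arrays, and the gamma arrays lacked 9.99 to 18.6% of probes, so the beams are described apart. On unirradiated gamma arrays mmca and mca4 differed in 3029 genes higher and 3661 lower, whereas on unirradiated carbon arrays 163 were higher and 188 lower. The carbon arrays labelled mmca and mca4 were thus far more alike than the gamma ones, and the labels, taken here as given, may hold an error. Every carbon mean or difference of the pair rests on those labels. scc7 went against its label: Epcam, an epithelial adhesion molecule, had 0.46 to 0.572 and the basal keratin Krt14 had 0.198 to 0.298 on its gamma arrays, against 110 to 167 and 301 to 369 in nrs1. The mesenchymal receptor gene Pdgfra had 68.2 to 113 in scc7, overlapping its range of 71 to 187 in nfsa. In whole tumours, fewer cells of a type and less RNA per cell cannot be told apart.

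Before irradiation, the C1q genes were bright in the radiation-induced fibrosarcoma, intermediate in nfsa and mca4 and low in mmca. For C1qc the unirradiated gamma arrays had 167 and 176 in the radiation-induced fibrosarcoma, 96.3 and 84.4 in nfsa, 97.4 and 87.1 in mca4, and 16.2 and 14.0 in mmca at day 1. The ranges did not overlap, except those of nfsa and mca4. C1qc was thus 3.51 ± 0.20 log2 units (SE) higher in the radiation-induced fibrosarcoma than in mmca, an 11.4-fold difference (limma, adjusted p = 5.75e-26), and C1qa differed by the same 3.51 (± 0.21) and C1qb by 2.86 ± 0.18. Between these tumours 67.9% of all genes differed. All 12 measured macrophage markers were also higher there, and the summed intensity of the 7 with values on every array was 221 to 243 in the radiation-induced fibrosarcoma and 20 to 21.8 in mmca. Their part in the C1q difference was not tested. Between nfsa and mca4 no C1q gene passed (C1qc -0.03 ± 0.20, adjusted p = 0.907), although 11 of the 12 macrophage markers were higher in nfsa.

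The other genes had a different order. C2 was highest in nfsa, with 0.822 and 1.39, followed by the radiation-induced fibrosarcoma with 0.392 and 0.318, and lowest in mca4 (0.151 and 0.201) and mmca (0.153 on the only array with a value). nfsa exceeded mca4 by 2.62 ± 0.39 (adjusted p = 2.73e-08), where 61.2% of genes differed. Cfb was highest in mca4, with 15.3 and 10.9, against 3.82 and 5.21 in the radiation-induced fibrosarcoma, a difference of 1.54 ± 0.38 (adjusted p = 0.000428). nfsa (4.61 and 6.64) overlapped both the radiation-induced fibrosarcoma and mmca (5.91 and 7.46), and all 3 lay below mca4, where 51.7% of genes differed from the radiation-induced fibrosarcoma. Serping1 was low in mmca, with 5.75 and 7.31, and had 17.7 to 33.4 across the other 3 tumours, which overlapped.

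**Figure D1:**
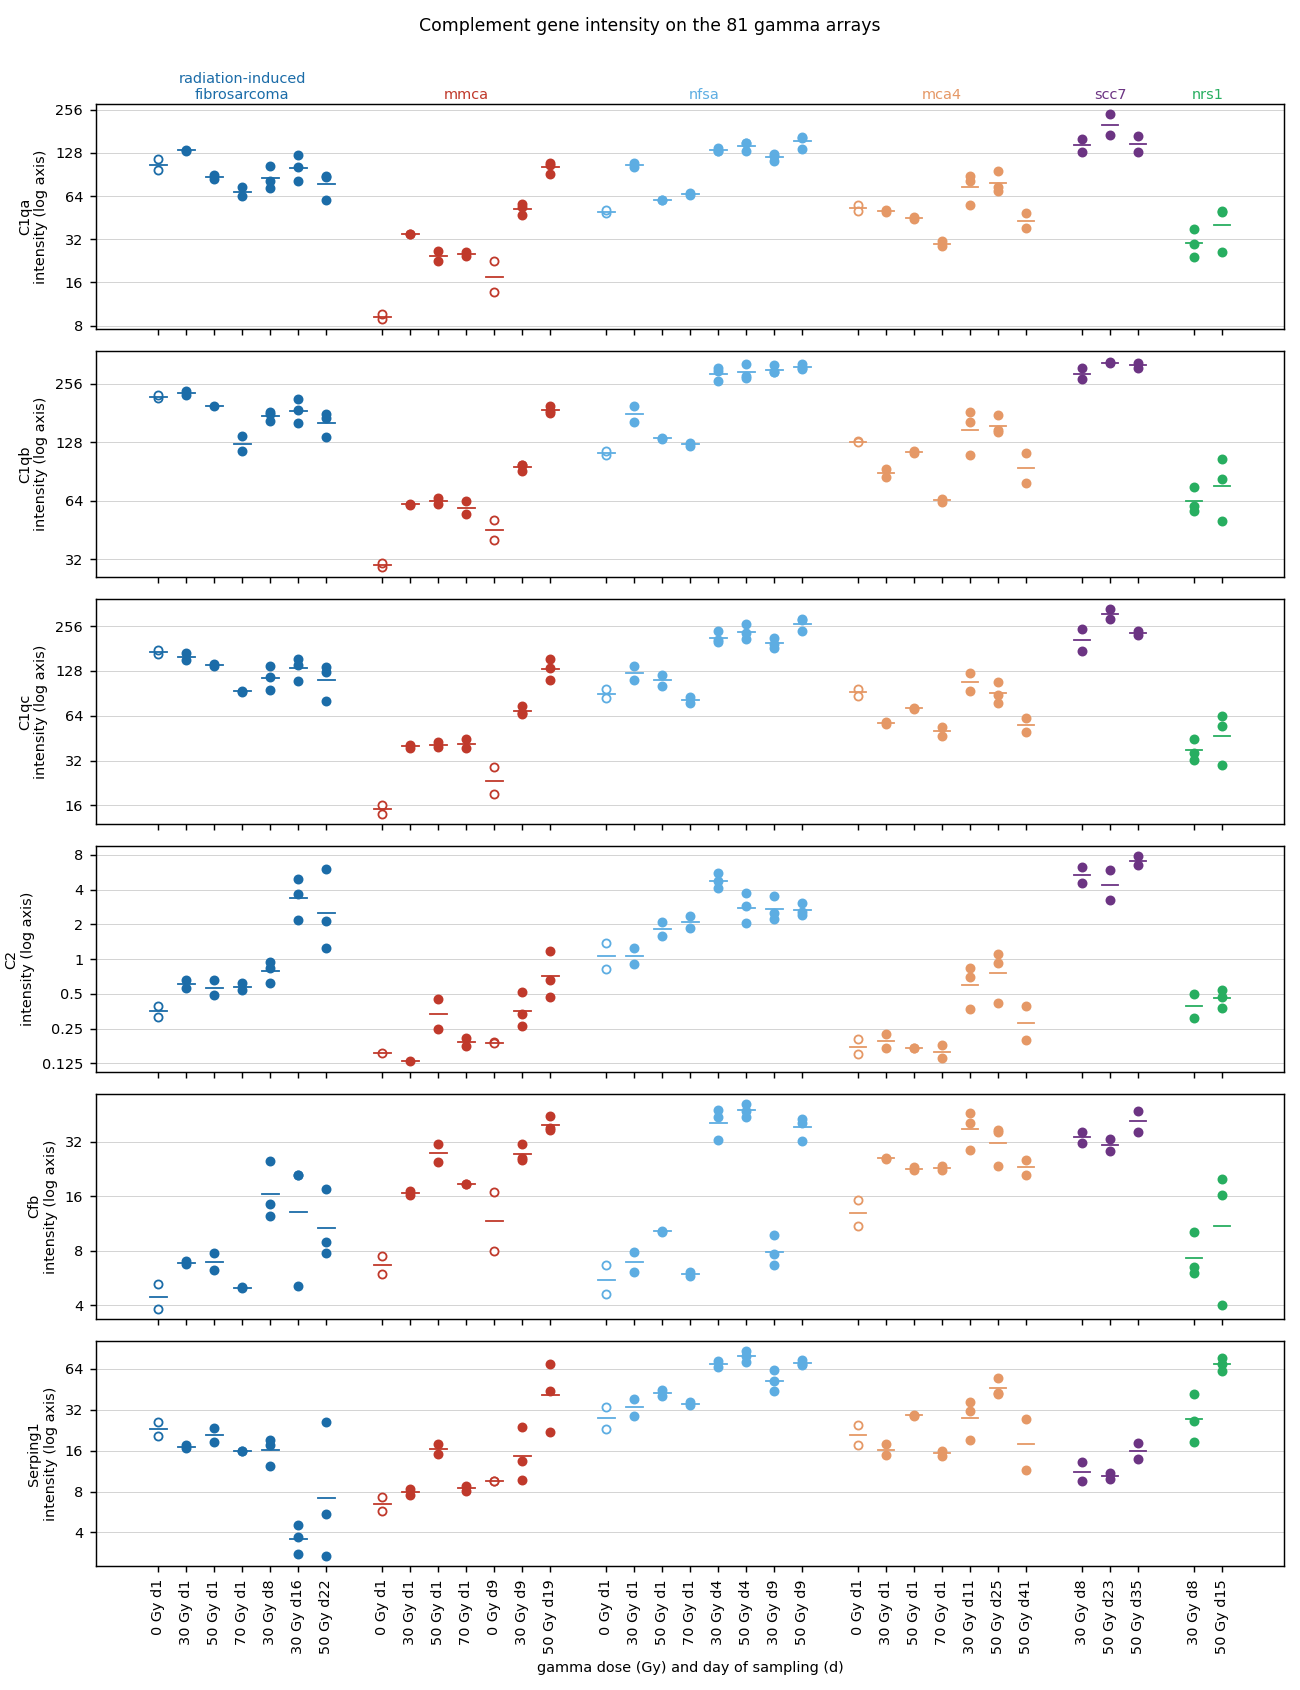
Intensity (log axis) of the 6 complement genes on each of the 81 gamma arrays, by tumour, dose and day; open points are unirradiated, filled points irradiated, and bars are the mean of log2 values in a group. The C1q genes are lowest in unirradiated mmca, while C2 and Serping1 part ways in the radiation-induced fibrosarcoma at days 16 and 22.

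At day 1 after gamma rays, Cfb, C2 and C1qa were higher in the mean of 4 tumours, and C1qb and C1qc rose in mmca and fell in mca4. C1qa rose in mmca and nfsa, and its lower values in the other tumours did not pass. Averaged over the fibrosarcomas and mammary carcinomas, 24 arrays after irradiation against 8 without, Cfb rose by 0.85 ± 0.16 (1.81-fold, adjusted p = 2.59e-06), C2 by 0.43 ± 0.18 (adjusted p = 0.033) and C1qa by 0.40 ± 0.08 (adjusted p = 3.39e-05). C1qb, C1qc and Serping1 changed by 0.13 to 0.15 and did not pass. So 3 of 6 members were called, all higher, where 59.4% of all genes were called and 24.8% were called higher. The call of C2 was lost without any of 4 of its 30 arrays (lowest 0.33, adjusted p = 0.128). Beside this, 8 of 12 macrophage markers rose and 1 fell, and 10 of 11 interferon-induced genes rose.

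The tumours diverged most for C1q. In mmca, C1qa had 8.88 and 9.66 on unirradiated arrays and 22.7 to 35.1 on the 6 irradiated ones, with no overlap, and rose by 1.59 ± 0.17 (3.02-fold, adjusted p = 1.3e-11). In mca4 C1qa had 50.7 and 55.2 without irradiation and 28.6 to 51.0 after it, a change of -0.38 ± 0.17 (adjusted p = 0.0618). In the radiation-induced fibrosarcoma it had 96.5 and 116 against 63.6 to 135, a change of -0.19 ± 0.17 (adjusted p = 0.35), so mmca and nfsa alone carried its mean rise. C1qc rose in mmca by 1.44 ± 0.16 and C1qb by 1.03 ± 0.14, where 33.1% of genes were called and 18% called higher. In mca4, C1qb fell from 130 and 128 to between 63.4 and 115, a change of -0.57 ± 0.14 (adjusted p = 0.000958), and C1qc changed by -0.64 ± 0.16 (adjusted p = 0.001), against 42.8% of genes called and 21.4% called lower. After 50 Gy alone no member passed in mca4, where 34.5% of genes were called. In the radiation-induced fibrosarcoma no member passed after 30 or 50 Gy alone (48.6 and 42.8% of genes called). After 70 Gy 3 were lower, where 31.6% of genes were called lower. Over the 3 doses C1qc changed there by -0.42 ± 0.16 (adjusted p = 0.0257, lost without either unirradiated array), against 50.9% called. In nfsa C1qa rose by 0.59 ± 0.17 (adjusted p = 0.00573, also lost without either unirradiated array), against 29% called and 9.32% called higher. These changes share a pair of control arrays within each tumour. The macrophage markers moved alongside in mmca, where 9 of 12 rose and none fell and their summed intensity went from 20 to 21.8 up to 47.4 to 65.8. In mca4 2 rose and 1 fell, and the sum stood at 78.4 to 86.8 before and 57 to 97.5 after. In mmca 7 of 10 fibroblast and matrix genes and 4 of 5 skeletal muscle genes also rose. The part of these lists in the C1q changes was not tested.

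Cfb was higher on every irradiated day 1 array than on the unirradiated arrays in mmca and in mca4. It went from 5.91 and 7.46 to between 16.2 and 31.1 in mmca (1.62 ± 0.31, adjusted p = 3.02e-05). In mca4 it went from 15.3 and 10.9 to between 22.3 and 26.1 (0.88 ± 0.31, adjusted p = 0.0177, or 0.63 and 0.253 without unirradiated replicate 2). In the fibrosarcomas its changes of 0.47 ± 0.31 and 0.44 ± 0.31 did not pass. The contrast between the fibrosarcomas and the mammary carcinomas at day 1 was called for 1 of 6 members, C1qc, at -0.51 ± 0.16 (adjusted p = 0.0187), where 21.9% of genes were called. That call was lost without any of 3 of the 32 arrays.

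At day 1 the C1q genes were lower after 70 than after 30 Gy in the mean of 4 tumours, in the values as deposited. The changes were -0.71 ± 0.10 for C1qa, -0.48 ± 0.09 for C1qb and -0.37 ± 0.10 for C1qc (adjusted p = 2.21e-08, 5.68e-06 and 0.00132), with 50.2% of genes called and 26.5% called lower. C1qa had 131 and 135 after 30 Gy and 63.6 and 74.2 after 70 Gy in the radiation-induced fibrosarcoma, 102 and 108 against 65.0 and 67.4 in nfsa, and 51.0 and 49.7 against 28.6 and 31.0 in mca4. In mmca it had 34.9 and 35.1 against 24.6 and 25.9. For C1qa the 30 Gy arrays were higher in all 4 tumours, without overlap. In mmca alone no member passed, where 28.7% of genes were called. There C1qb had 61.1 and 61.7 after 30 Gy against 54.6 and 63.7 after 70 Gy, and C1qc had 38.9 and 41.0 against 44.4 and 39.0. The 70 Gy arrays also had lower medians, 1.42 to 1.52 against 1.57 to 1.72, and lacked fewer probes, 10.4 to 11.4% against 13.6 to 15.3%. The median change of all genes between these doses was -0.0098. After quantile normalization C1qa still differed in the mean (-0.33, adjusted p = 0.00558) but passed in no single tumour, with -0.41 in the radiation-induced fibrosarcoma, -0.42 in mmca and -0.49 in mca4 (adjusted p = 0.126, 0.128 and 0.094) and -0.0051 in nfsa (adjusted p = 0.989). Under it C1qb no longer differed (-0.02, adjusted p = 0.858), and C1qc turned to 0.08 (adjusted p = 0.478). C2, Cfb and Serping1 did not pass between these doses, with changes of 0.29 ± 0.21, -0.17 ± 0.19 and -0.01 ± 0.20. Of 12 macrophage markers, 8 were lower and 3 higher after 70 Gy.

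The middle dose stood out at day 1 for Cfb and Serping1 in mmca, and in part in the other tumours. In mmca Serping1 had 8.31 and 7.56 after 30 Gy, 18.0 and 15.1 after 50 Gy and 8.78 and 8.13 after 70 Gy, against 5.75 and 7.31 without irradiation. Only after 50 Gy did it pass, at 1.35 ± 0.41 (adjusted p = 0.0111), where 20.3% of genes were called. Cfb had 31.1 and 24.7 after 50 Gy and 16.2 to 18.7 after the other doses, with a change of 2.06 ± 0.38 after 50 Gy, 1.32 ± 0.38 after 30 Gy and 1.49 ± 0.38 after 70 Gy. In mca4 Serping1 had 29.3 and 29.0 after 50 Gy and 14.7 to 17.9 after the other doses. In nfsa and the radiation-induced fibrosarcoma its 50 Gy arrays were also above those of the other doses, by less. Cfb in nfsa had 10.3 and 10.2 after 50 Gy and 5.82 to 7.85 after the other doses. In mca4 and the radiation-induced fibrosarcoma Cfb was not set apart upwards after 50 Gy. The differences between 50 Gy and the other doses were not tested. Fibroblast and matrix genes moved alongside in mmca, with 8 of 10 higher after 50 Gy, 4 after 70 Gy and 1 after 30 Gy. Skeletal muscle genes moved further: the summed intensity of 3 was 2.98 to 3.09 without irradiation, 15 to 15.6 after 30 Gy, 161 to 175 after 50 Gy and 7.54 to 7.95 after 70 Gy. The part of both lists in these values was not tested.

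By days 8 to 25 after gamma rays all 6 members were higher in the mean of 4 tumours, where 73.6% of genes were called and 34% called higher. C2 rose by 1.78 ± 0.16 (3.44-fold, adjusted p = 3.75e-16) and Cfb by 1.53 ± 0.15 (2.90-fold, adjusted p = 2.29e-14). C1qa rose by 0.94 ± 0.08, C1qc by 0.74 ± 0.08, C1qb by 0.73 ± 0.07 and Serping1 by 0.41 ± 0.16 (adjusted p = 0.0222, lost without any of 3 of the 35 arrays). The median change was 0.84 for the members and -0.03 for all genes. Compared with day 1, 5 of the 6 were higher, led by C2 at 1.36 ± 0.17, where 64.9% of genes were called, and Serping1 changed by 0.26 ± 0.15 without passing. The day 1 and later changes use the same unirradiated arrays, other than in mmca. The only unirradiated gamma arrays later than day 1 were those of mmca at day 9. In gamma changes after day 1, time and irradiation therefore cannot be told apart, other than in mmca at day 9.

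C2 and Cfb rose in each of the 4 tumours, where 67.7% of genes were called in the radiation-induced fibrosarcoma, 42.4% in mmca, 57.5% in nfsa and 63.7% in mca4. C2 rose by 2.42 ± 0.31 in the radiation-induced fibrosarcoma, 1.95 ± 0.32 in mca4, 1.43 ± 0.32 in mmca and 1.33 ± 0.32 in nfsa. In mca4 it went from 0.151 and 0.201 to 0.695, 0.843 and 0.368 at day 11 and 0.42, 0.922 and 1.11 at day 25, with no overlap. Cfb rose by 1.41 ± 0.31 to 1.65 ± 0.31 across the tumours. In nfsa its value averages 2 unlike groups of day 9. The 50 Gy arrays had 32.2, 42.9 and 40.7. Those of 30 Gy had 7.69, 9.71 and 6.63, which overlapped the unirradiated 4.61 and 6.64. The calls rested on 1 unirradiated array in nfsa for C2 and in mmca for Cfb: without unirradiated replicate 1 of nfsa C2 changed by 0.95 (adjusted p = 0.0588), and without unirradiated day 9 replicate 2 of mmca Cfb changed by 0.96 (adjusted p = 0.0658).

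The C1q genes divided the tumours. In mmca C1qc went from 28.9 and 19.0 on unirradiated day 9 arrays to 66.5, 74.5 and 66.2 at day 9 and 155, 134 and 111 at day 19, a rise of 2.03 ± 0.16 (4.07-fold, adjusted p = 4.66e-17), beside which 8 of 10 fibroblast and matrix genes and 5 of 6 skeletal muscle genes rose. In nfsa C1qb went from 110 and 116 to between 292 and 322 at day 9, a rise of 1.44 ± 0.14 (adjusted p = 2e-13). In both tumours no late array overlapped the unirradiated ones for any C1q gene. In mca4 only C1qa passed among the 3, at 0.53 ± 0.17 (adjusted p = 0.00497, and 0.0716 without unirradiated replicate 2), while C1qb and C1qc changed by 0.23 ± 0.14 and 0.10 ± 0.17. In the radiation-induced fibrosarcoma C1qc fell from 167 and 176 to between 80.3 and 154, a change of -0.53 ± 0.16 (adjusted p = 0.00249), and C1qb changed by -0.33 ± 0.14 (adjusted p = 0.0298, lost without any of 4 of its arrays).

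**Figure D2:**
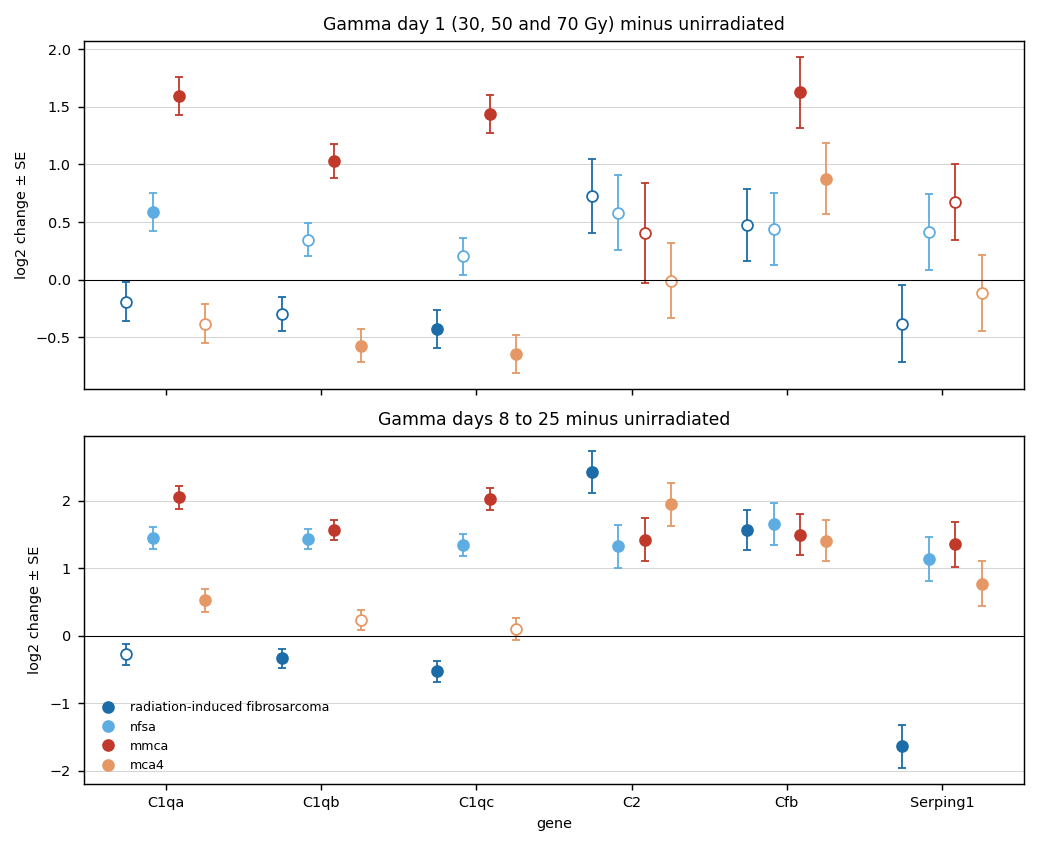
Change in log2 intensity against unirradiated arrays of the same tumour (mean ± SE of the limma fit) for each gene, at day 1 over 30, 50 and 70 Gy and at days 8 to 25; filled points passed an adjusted p of 0.05 and open points did not. Late C2 and Cfb are above 0 in all 4 tumours, whereas Serping1 in the radiation-induced fibrosarcoma is at -1.64.

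Serping1 had the widest range of late changes between tumours among the 6 members. It rose by 1.35 ± 0.33 in mmca, 1.14 ± 0.33 in nfsa and 0.77 ± 0.33 in mca4 (adjusted p = 0.0369), and fell by 1.64 ± 0.32 in the radiation-induced fibrosarcoma (adjusted p = 7.11e-06). In that tumour its unirradiated arrays had 20.7 and 26.0, those of day 8 had 12.4, 19.1 and 17.7, those of day 16 had 3.68, 2.76 and 4.51, and those of day 22 had 25.9, 2.67 and 5.43. A single array of day 22 thus lay with the unirradiated ones and the remaining 5 arrays of days 16 and 22 lay below every other gamma array of this tumour. Without that array the fall was -1.94 (adjusted p = 1.82e-10). The rise in nfsa was not called without unirradiated replicate 1 (0.87, adjusted p = 0.095), nor that in mca4 without unirradiated replicate 2 (0.53, adjusted p = 0.315) or any of 3 irradiated arrays. From day 8 to day 16 after 30 Gy in the radiation-induced fibrosarcoma Serping1 changed by -2.17 ± 0.33 (adjusted p = 3.43e-07) and C2 by 2.11 ± 0.32 (adjusted p = 3.66e-07), where 34.9% of genes were called. C2 had 0.838, 0.62 and 0.949 at day 8 and 4.96, 2.18 and 3.66 at day 16, with no overlap. Cfb there had 20.8, 5.09 and 20.9 at day 16, with 1 array near the unirradiated level. Between these days all 6 skeletal muscle genes fell (median -3.87), the summed intensity of 3 going from 222 to 355 down to 11.1 to 85.6, and 5 of 6 T and NK cell genes fell. Of 8 genes of NF-kB and acute inflammation 5 rose, their sum going from 201 to 223 up to 370 to 468, as did 6 of 11 interferon-induced genes and 3 of 12 macrophage markers. The part of these lists was not tested.

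Tested directly, the late changes of the radiation-induced fibrosarcoma differed from the mean of the other 3 tumours for 5 of 6 members, where 52.4% of genes differed. The differences were -2.73 ± 0.37 for Serping1, -1.68 ± 0.18 for C1qc, -1.62 ± 0.19 for C1qa, -1.41 ± 0.16 for C1qb and 0.86 ± 0.36 for C2, the last lost without any of 9 of the 35 arrays. This contrast was chosen after the values had been seen. The contrast of both fibrosarcomas against both mammary carcinomas was called for 4 members, Serping1 (-1.31 ± 0.33), C1qa (-0.70 ± 0.17), C1qc (-0.65 ± 0.16) and C1qb (-0.35 ± 0.14), with 39% of genes called. The last of these was lost without any of 20 of the 35 arrays. Each of these 4 genes rose in nfsa. Alongside, 3 macrophage markers rose and 2 fell in the radiation-induced fibrosarcoma, against 10 and 0 in mmca, 7 and 2 in nfsa and 9 and 0 in mca4. Interferon-induced genes ran otherwise, with 10 of 11 higher in the radiation-induced fibrosarcoma (median 2.19), 9 in nfsa (1.81), 6 in mca4 (0.39) and 2 in mmca (0.13, with 1 lower). The part of either list in the members' changes was not tested.

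nfsa was the only tumour sampled at day 4 after gamma rays, and all 6 members were higher then, where 58.6% of genes were called and 24.4% called higher. Cfb rose from 4.61 and 6.64 to 47.5, 43.8 and 32.5 after 30 Gy and 47.2, 51.7 and 43.9 after 50 Gy, an increase of 2.99 ± 0.31 (7.95-fold, adjusted p = 3.55e-13). C2 rose by 1.77 ± 0.32, C1qa by 1.48 ± 0.17, Serping1 by 1.42 ± 0.34, C1qb by 1.36 ± 0.14 and C1qc by 1.31 ± 0.16. Alongside, all 6 T and NK cell genes rose (median 3.77), with the summed intensity of 3 at 2.48 to 2.63 before and 21 to 55.7 at day 4, as did 10 of 11 interferon-induced genes (median 2.25), while 9 of 12 macrophage markers rose and 1 fell. Their part in the day 4 rise was not tested. By day 9 Cfb was lower again by 1.34 ± 0.22 in the mean of both doses (adjusted p = 3.87e-06), the 1 member of 6 called where 20.6% of genes were. The doses parted at day 9: Cfb had 7.69, 9.71 and 6.63 after 30 Gy and 32.2, 42.9 and 40.7 after 50 Gy, with no overlap, a difference of 2.28 ± 0.31 (4.84-fold, adjusted p = 1.4e-08). C1qc also differed, by 0.44 ± 0.16 (adjusted p = 0.0286, lost without any of 4 of the 6 arrays). This comparison was chosen after its values had been seen, and 38.4% of genes were called in it. Among marker lists, 5 of 6 T and NK cell genes (median 2.39), 6 of 11 interferon-induced genes and all 6 skeletal muscle genes (median 4.10) were higher after 50 Gy. Their part in the Cfb difference was not tested.

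Levels also moved without irradiation and at the end of the course. Unirradiated mmca had higher C1q at day 9 than at day 1: C1qa had 22.5 and 13.7 against 8.88 and 9.66, a difference of 0.93 ± 0.21 (adjusted p = 0.000556), and C1qb and C1qc differed by 0.59 ± 0.18 and 0.64 ± 0.20, where 21.2% of genes were called. Without unirradiated day 9 replicate 1 none of the 3 passed, and C1qa differed by 0.57 (adjusted p = 0.132). Of the macrophage markers 5 of 12 were also higher at day 9 and none lower, and the summed intensity of 7 went from 20 to 21.8 up to 26.2 to 39.2. Their part in this difference was not tested. In mca4 after 50 Gy, 5 members were lower at day 41 than at day 25, where 33.2% of genes were called. Serping1 had 27.5 and 11.6 against 42.6, 41.9 and 54.9 (-1.37 ± 0.37), C2 changed by -1.43 ± 0.36 and the C1q genes by -0.71 ± 0.18 to -0.88 ± 0.19. Of these, C1qa alone kept its call without day 41 replicate 2. Beside this, 11 of 12 macrophage markers and 9 of 10 fibroblast and matrix genes were lower, the summed intensity of 7 of the latter going from 54.1 to 135 down to 11.9 to 37.9. The hepatocyte gene Ahsg was higher, at 4.53 to 5.56 against 1.51 to 1.75. The part of these genes was not tested.

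scc7 and nrs1 had no unirradiated arrays of either beam, so only their levels are given. In scc7 the C1q genes reached the top of the gamma arrays, with C1qc at 174 and 246 at day 8, 284 and 334 at day 23 and 222 and 238 at day 35. C2 in scc7, at 3.25 to 7.77, was above its level on most gamma arrays, and Serping1, at 9.63 to 18.3, was low. No member passed between days 35 and 23 (1.13% of genes called). On gamma arrays nrs1 had lower C1q than scc7 without overlap. Its Serping1 was higher, but the ranges nearly touched, with 18.5 on the lowest nrs1 array and 18.3 on the highest of scc7. C1qc in nrs1 had 44.7, 32.5 and 36.0 at day 8 and 30.1, 63.3 and 54.9 at day 15, while Serping1 had 26.3, 41.7 and 18.5 at day 8 and 62.1, 70.1 and 76.9 at day 15. The array with the lowest C1q at day 15 also had the lowest Cfb, 3.99 against 16.3 and 19.8.

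After carbon ions the arrays labelled mmca and mca4 showed a rise that took in all 6 members by days 3 to 5. At day 1 no member passed in the mean of both (C2 0.67 ± 0.28, Cfb 0.60 ± 0.27), where 8% of genes were called. C2 and Cfb were still higher on each day 1 array than on the 0 h arrays of the same tumour. In mmca Cfb had 29.9 and 33.6 against 19.9 and 22.8, and C2 had 0.508 and 0.466 against 0.318 and 0.348. In mca4 C2 had 0.572 and 0.472 against 0.316 and 0.286. At days 3 to 5 all 6 were higher, by 1.10 ± 0.11 for C1qb to 1.55 ± 0.24 for C2, where 59% were called and 21.8% called higher. At day 20 all 6 passed again, where 71% were called and 27.3% called higher. C1qa then stood at 2.38 ± 0.15 (5.21-fold, adjusted p = 5.19e-24), Serping1 at 2.16 ± 0.29 (adjusted p = 5.84e-10), C1qc at 2.06 ± 0.14, C2 at 2.0 ± 0.28, C1qb at 1.51 ± 0.13 and Cfb at 1.41 ± 0.27. The median of all genes was -0.14 at day 20 and -0.10 at days 3 to 5. These changes share the 4 unirradiated carbon arrays, all of 0 h, so time and irradiation cannot be told apart in them.

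In mca4, C1qa had 31.3 and 28.4 before irradiation, 38.5 and 34.8 at day 1, 82.9 and 77.6 at day 3, 126 and 115 at day 5 and 233 and 173 at day 20, so that each time from day 3 on lay above the one before. C1qa in mmca ran from 33.8 and 37.8 through 34.4 and 32.0, 56.7 and 76.4, and 84.8 and 101 to 144 and 144. Cfb went another way. It had 18.5 and 16.1 in mca4 before irradiation, 28.1 and 25.2 at day 1, 57.0 and 54.2 at day 3, and stayed at 53.0 to 60.4 at days 5 and 20. Serping1 in mmca went from 15.1 and 17.2 to 33.6 and 31.9 at day 3, 43.9 and 55.4 at day 5 and 63.4 and 69.9 at day 20. C1qb had 208 and 229 in mca4 at day 5 and 217 and 215 at day 20, and its signal reached up to 87.9% of the brightest probe on the same array in mmca and 85.9% in mca4. The part of that ceiling in its fold was not tested. At 6 h C1qa was lower by 0.44 ± 0.15 in the mean of both (adjusted p = 0.0406), the 1 member of 6 called where 9.54% of genes were. That comparison was chosen after its values had been seen, and the call was lost without any of 7 of its 8 arrays and after quantile normalization (adjusted p = 0.108). Between mmca and mca4 the change at day 20 passed for no member (0.286% of genes called), with differences of -0.23 ± 0.58 for Serping1 to -0.74 ± 0.29 for C1qa.

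**Figure D3:**
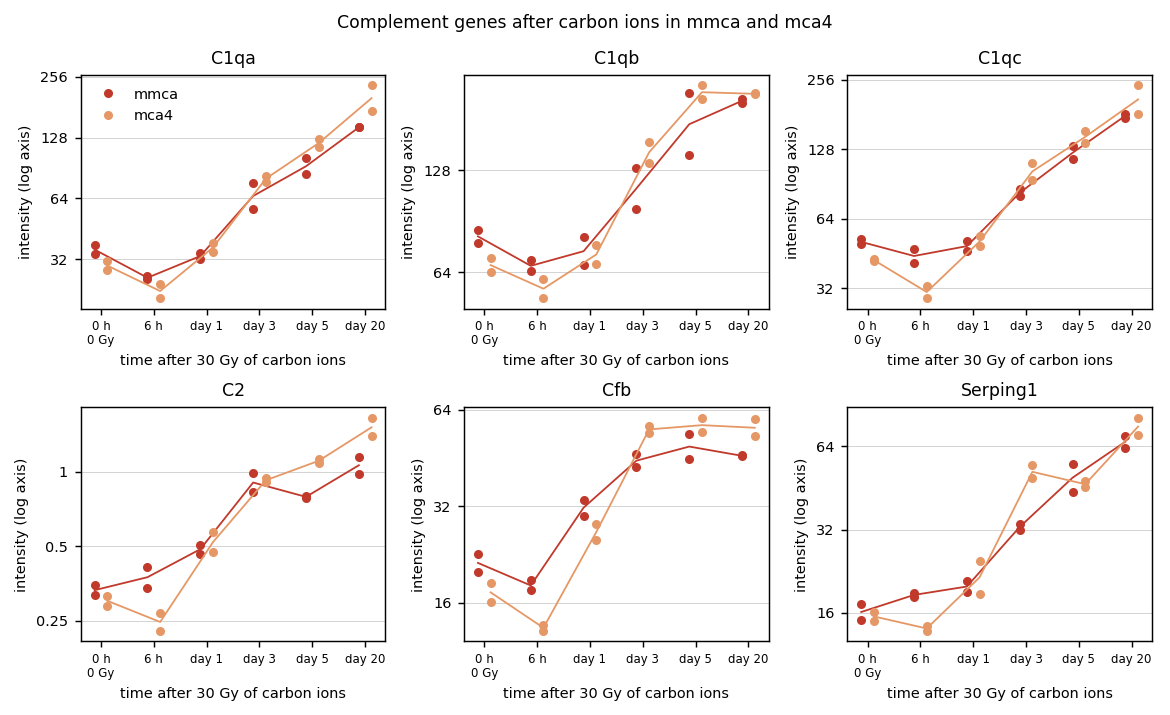
Intensity (log axis) of each gene on the carbon arrays of mmca and mca4 before irradiation (0 h) and at 6 h and days 1, 3, 5 and 20 after 30 Gy; points are arrays and lines join group means. C1qa, C1qc, C2 and Serping1 have their highest means at day 20, while Cfb is level from day 3 on at 42.5 to 60.4.

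The macrophage markers rose in step, with 12 of 12 higher at days 3 to 5 (median 1.5) and 11 of 12 at day 20 (median 2.05). Their summed intensity in mca4 was 50 to 52.6 before irradiation, 193 to 222 at day 5 and 260 to 271 at day 20. The fibroblast and matrix genes passed in 7 of 10 at days 3 to 5 and in 10 of 10 at day 20. Interferon-induced genes were higher in 8 of 11 at days 3 to 5 and in 2 of 11 at day 20, with 1 lower. All 6 skeletal muscle genes were higher at day 20 (median 2.45) and none passed at days 3 to 5. The part of each list in the members' rise was not tested.

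In the 4 tumours with a pair of carbon times, Cfb fell in each from day 5 to day 20 or 42, while Serping1 and C1qa fell in the radiation-induced fibrosarcoma and scc7 and did not pass in nfsa or nrs1. In the mean, Serping1 changed by -1.73 ± 0.20 (3.32-fold lower, adjusted p = 3.22e-11), Cfb by -1.70 ± 0.19 (3.26-fold lower, adjusted p = 5.04e-12) and C1qa by -0.34 ± 0.10 (adjusted p = 0.00406), where 56.5% of genes were called and 20.4% called lower. C1qb, C1qc and C2 changed by 0.02 ± 0.09, -0.14 ± 0.10 and -0.35 ± 0.20 and did not pass. C2 had 11.0 and 10.9 at day 5 and 6.52 and 5.58 at day 20 in the radiation-induced fibrosarcoma (-0.86 ± 0.39, adjusted p = 0.0698), and 7.09 and 7.60 against 7.60 and 7.97 in nfsa. In scc7 it had 1.3 to 1.58, and in nrs1 0.279 to 0.41. The C1q genes were highest in scc7, where C1qc had 342 and 400 at day 5 and 273 and 303 at day 42, and lowest in nrs1, with 107 and 112 at day 5 and 120 and 98.3 at day 20.

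Cfb was lower on every late array than on every day 5 array of the same tumour, in each of the 4. The share of all genes called was 44.9% in the radiation-induced fibrosarcoma, 32.5% in scc7, 19.9% in nfsa and 35.7% in nrs1. Cfb had 119 and 143 at day 5 and 24.6 and 27.5 at day 20 in the radiation-induced fibrosarcoma, and 71.3 and 62.8 at day 5 and 15.6 and 17.1 at day 42 in scc7. In nfsa it had 46.8 and 56.8 against 23.6 and 20.9 (-1.21 ± 0.38, adjusted p = 0.0147, lost without any of 3 of the 4 arrays), and in nrs1 15.6 and 20.8 against 7.72 and 7.48 (-1.25 ± 0.38, adjusted p = 0.00704, and 0.0917 without day 5 replicate 2). Serping1 split the tumours. It had 37.7 and 37.8 at day 5 and 3.29 and 3.72 at day 20 in the radiation-induced fibrosarcoma (-3.43 ± 0.41, 10.8-fold lower, adjusted p = 1.12e-10), and 60.5 and 49.5 against 6.96 and 7.87 in scc7 (-2.89 ± 0.41, 7.39-fold lower, adjusted p = 3.89e-08). In nfsa it had 67.0 and 62.0 against 65.6 and 64.0 (0.01 ± 0.41), and in nrs1 74.6 and 78.5 against 48.2 and 51.3 (-0.62 ± 0.41, adjusted p = 0.237). C1qa passed in the radiation-induced fibrosarcoma and scc7 (-0.65 ± 0.21 in each), and each call was lost without either of 2 of its 4 arrays. In nfsa it had 137 and 155 at day 5 and 165 and 174 at day 20 (0.22 ± 0.21, adjusted p = 0.522). With no unirradiated arrays in these tumours, whether the late values are below the starting level cannot be said.

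**Figure D4:**
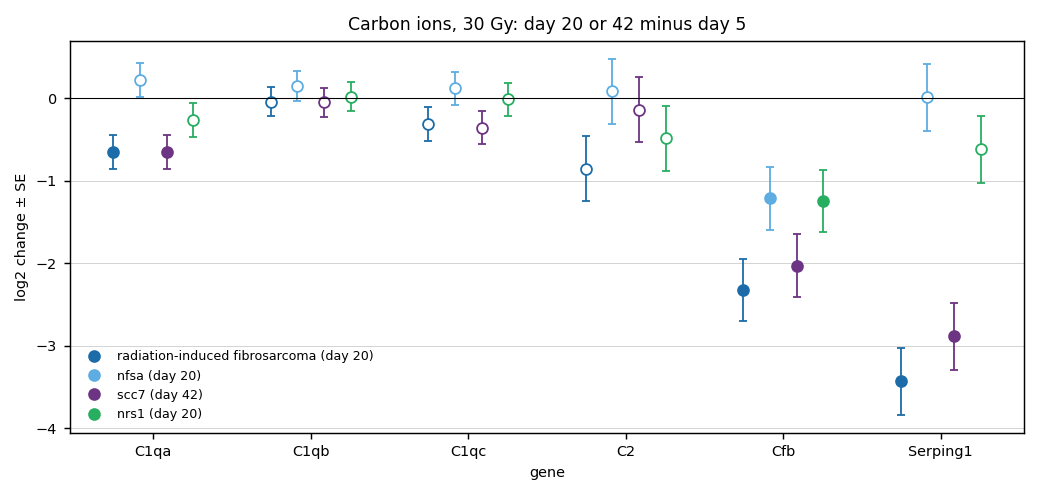
Change in log2 intensity from day 5 to day 20 (day 42 for scc7) after 30 Gy of carbon ions in the 4 tumours without unirradiated carbon arrays (mean ± SE of the limma fit); filled points passed an adjusted p of 0.05. Cfb is lower in all 4 tumours, and Serping1 reaches -3.43 in the radiation-induced fibrosarcoma and -2.89 in scc7.

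Several cell-type lists fell over the same interval, and the fibroblast and matrix list did not fall as a whole. All 6 T and NK cell genes were lower in the mean (median -2.62), and the summed intensity of the 3 with values on every array went from 51.2 and 52.1 to 3.26 and 3.48 in the radiation-induced fibrosarcoma and from 66.6 and 66.9 to 6.64 and 6.72 in nfsa. Of 12 macrophage markers 9 were lower and none higher, and of 11 interferon-induced genes 9 were lower and none higher. nfsa, in which Cfb fell and Serping1 changed by 0.01, had 1 interferon-induced gene lower and 1 higher. The counts were 9 and 0 in the radiation-induced fibrosarcoma and 6 and 0 in scc7, in which both Cfb and Serping1 fell. Of 10 fibroblast and matrix genes 3 were higher and 2 lower in the mean, and the summed intensity of 7 went from 79.6 to 86.9 up to 104 to 113 in scc7, from 210 to 230 up to 248 to 253 in nfsa, from 161 to 177 to 159 to 169 in the radiation-induced fibrosarcoma, and from 78.3 to 83.5 down to 36.2 to 41.8 in nrs1. The part of these lists was not tested. C1qb on the nfsa carbon arrays stood at 89.4 to 93.5% of the array's brightest probe, near the top of the scale.

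Across group means of log2 intensity, with each tumour's mean subtracted, the C1q genes followed each other closely: Pearson's r was 0.948 to 0.97 over the 34 gamma groups and 0.968 to 0.993 over the 20 carbon groups. The groups share tumours and arrays of 1 platform, so these values describe the pattern and carry no p. C2 and Serping1 had r = 0.15 on gamma and 0.772 on carbon arrays, and Cfb and Serping1 0.414 and 0.915. Among all tested genes, the gene most like C1qa and C1qb on gamma arrays, after the C1q genes themselves, was Arl11 (r = 0.926 and 0.934, and 0.985 and 0.972 on carbon arrays). For C1qc it was the macrophage gene Aif1 (0.932, and 0.956 on carbon arrays). Most like C2 were Dram1 (0.91), the protease gene Adam9 (0.904) and Gbp2, an interferon-induced GTPase gene (0.894, and 0.896 on carbon arrays). Most like Cfb were AW112010 (0.921), the NK cell receptor gene Klrk1 (0.908) and the Fc receptor gene Fcgr4 (0.905). Serping1 had weaker matches in Cyp1b1 (0.825, and 0.915 on carbon arrays), Gpc2 (0.815) and the matrix gene Abi3bp (0.815, and 0.608 on carbon arrays).

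Of 44 other complement genes listed, 22 were tested. In the mean of 4 tumours at gamma day 1, 11 rose and 4 fell, led by Vsig4, a macrophage complement receptor (0.80 ± 0.21), and Cd55, which disassembles C3 convertases (0.67 ± 0.16). At gamma days 8 to 25, 9 rose and 7 fell, and the leading ones were Cd55 (1.67 ± 0.16), Clu, an inhibitor of the membrane attack complex (1.40 ± 0.11), the C1q-associated protease gene C1ra (1.23 ± 0.09), and the complement receptor genes Itgam (0.99 ± 0.08) and C3ar1 (0.91 ± 0.09). In nfsa at day 4, 7 rose and 2 fell, with Cd55 at 2.38 ± 0.32 and C1ra at 1.59 ± 0.19. After carbon ions 13 rose and 4 fell at days 3 to 5, and as many did so at day 20, when the lectin pathway protease gene Masp1 was up by 3.56 ± 0.29, Clu by 3.22 ± 0.20 and Cd55 by 2.99 ± 0.28. Between day 5 and the late carbon times 5 rose and 12 fell, with Cd55 at -1.77 ± 0.19 and Itgb2, the shared chain of complement receptors 3 and 4, at -1.08 ± 0.15. The shares called among all genes in these comparisons are those given above, and nothing particular to complement is read from the counts.

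Of the hepatocyte markers, Ttr lay at 0.0905 to 0.516 and Apoa1 at 0.145 to 0.84 on gamma arrays of the 6 tumours, both near the floor. Ahsg, the 1 marker of 5 tested, did not pass in the gamma day 1 mean. The epithelial list had 1 of 3 tested genes lower at gamma day 1, and the endothelial list also 1 of 3. Of 8 genes of NF-kB and acute inflammation, 4 rose and 1 fell at gamma day 1 and again at days 8 to 25. None of the 6 T and NK cell genes passed at gamma day 1, and all 6 rose at days 8 to 25 (median 1.84). Of 6 skeletal muscle genes, none passed at gamma days 8 to 25 in the mean.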

How the data were processed

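RNA of whole tumours was labelled with Cy5 and hybridised to CodeLink arrays, 1 array per sample, per the labels' protocols. The deposited values are linear intensity values; how the authors scaled them is not given in the sources used here. For this work the deposited values were raised to a floor of 0.1269, which 5% of those above 0 do not reach (1831 were at or below 0), and put on the log2 scale; gaps were not filled. The annotation table gave 1 gene symbol for 21615 of the 36227 probes, several for 681 and none for 13931; 21487 of the first were matched to the RefSeq gene table by Entrez identifier and their symbols updated. Probes with values on under 90% of arrays or a mean below the 20th percentile were left out, and the brightest probe stood for a gene, leaving 12962 genes. Group means were fitted with limma 3.58.1 in R 4.3.3 over all 121 arrays and 54 groups (67 residual degrees of freedom, mean-variance trend), and p values were adjusted over all genes by Benjamini-Hochberg, with a call at an adjusted p under 0.05. Changes are on the log2 scale with the SE of the fit. The mean of log2 values in mmca later than day 1 was set against unirradiated arrays of day 9.

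The fit was tested on simulated data: of 100 genes changed by 0.5 log2 units, 94 were called in the gamma day 1 mean, 98 in the gamma days 8 to 25 mean, 81 in the carbon days 3 to 5 mean and 88 in the late carbon mean. The changed genes were drawn from all genes, whose median SD within groups was 0.154 log2 units. The members had 0.181 (C1qb) to 0.422 (Serping1), and far fewer genes were changed than were called in the data. These counts therefore do not give the share expected for the members. The number of arrays limits the precision. The members, the lists and the comparisons were chosen with earlier results of these data known. Named beyond the members were up to 5 called complement genes with the largest change, and for each member the 3 genes most correlated with it over gamma group means. Replicate numbers paired the arrays of carbon mca4, where in all 15 pairs of groups same-numbered arrays deviated together (r of at least 0.124). In carbon mmca 12 of 15 pairs did. Altogether 3 comparisons (the radiation-induced fibrosarcoma against the other 3 tumours, nfsa at day 9 by dose, and carbon 6 h) were added after the data were seen. Figures were drawn with Python 3.11.15 and matplotlib 3.10.9.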

Additional observations from a re-analysis of the deposited data

Results flagged for a closer look

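Groups held 2 or 3 arrays, too few to test a single array against its group. Differences between tumours in the same contrast passed limma's test for 10 values. At day 1 after gamma rays the change in C1qc was lower in the fibrosarcomas than in the mammary carcinomas by -0.51 (adjusted p = 0.0187). At days 8 to 25 the same contrast gave -0.70 for C1qa (adjusted p = 0.000474), -0.35 for C1qb (adjusted p = 0.0464), -0.65 for C1qc (adjusted p = 0.000886) and -1.31 for Serping1 (adjusted p = 0.000929). The radiation-induced fibrosarcoma against the mean of the other 3 tumours gave -1.62 for C1qa (adjusted p = 7.06e-11), -1.41 for C1qb (adjusted p = 5.11e-11), -1.68 for C1qc (adjusted p = 1.10e-11), 0.86 for C2 (adjusted p = 0.0400) and -2.73 for Serping1 (adjusted p = 6.70e-09), a comparison chosen after its values were seen.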

How the results depend on the processing

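Of 211 called changes of the 6 members, all kept their call without the mean-variance trend and 209 with the floor at the 10th percentile. Quantile normalization kept 192, lost 15, reversed 4 and gained 14. The replicate block kept 206 and gained 4. Fitting only the arrays of the comparison kept 201, lost 10 and gained 62. All kept their call without the filter on dim probes and with the mean of a gene's probes. Each member had 1 probe, which passed that filter, so its values were the same in these 2 settings. They could move a call only through the other genes. Leaving out each array in turn reversed none, and 161 kept their call throughout. With 1 value per group 17 of 74 kept it. With the day 1 control of mmca 27 of 28 kept it and 4 were gained, and Cfb at days 8 to 25 minus day 1 in mmca turned from -0.123 (not called) to 0.683. With missing values at the floor and quantile normalization 115 kept it and 5 values reversed, and the members called fell to 1 for 70 against 30 Gy (main 3), 0 for the day 1 contrast of tumour types (1), 3 for gamma days 8 to 25 (6), 1 for its contrast of tumour types (4), 3 for nfsa day 4 (6), 1 for unirradiated mmca (3), 2 for mca4 day 41 (5), 2 for the radiation-induced fibrosarcoma against the others (5) and 0 for carbon 6 h (1). Quantile normalization alone gave 1 for dose and 0 for carbon 6 h. Fitting only the arrays of the comparison gave 5 at gamma day 1 (3), 5 for dose, 3 for the day 1 contrast of types, 0 for unirradiated mmca and for mca4 day 41, 3 at carbon day 1 (0), 3 for mmca minus mca4 at carbon day 20 (0), 5 for late carbon (3), 4 for nfsa day 9 by dose (2) and 4 for carbon 6 h. With the replicate block the day 1 contrast of types gave 2. With 1 value per group the counts were 1 at gamma day 1, 1 for dose, 0 for both contrasts of types and for the radiation-induced fibrosarcoma against the others, and 3 for days 8 to 25 minus day 1 (5). Leaving out 1 array gave 2 to 3 members at gamma day 1, 3 for dose, 0 to 2 for the day 1 contrast of types, 5 to 6 at days 8 to 25, 3 to 4 for its contrast of types, 4 to 6 for days 8 to 25 minus day 1, 6 for nfsa day 4, 1 for nfsa day 9 against day 4, 0 to 4 for unirradiated mmca, 2 for the radiation-induced fibrosarcoma day 16 against day 8, 1 to 5 for mca4 day 41, 0 to 1 for carbon 6 h, 4 to 5 for the radiation-induced fibrosarcoma against the others, 1 to 2 for nfsa day 9 by dose, 3 for late carbon, and 6 at carbon days 3 to 5 and day 20. For 70 against 30 Gy, C1qc turned to 0.081 after quantile normalization and 0.033 with missing values at the floor as well; within nfsa C1qb turned to 0.113 and 0.082 and C1qc to 0.119 and 0.088. C1qa after 70 Gy in the radiation-induced fibrosarcoma turned from -0.622 to 0.001 after quantile normalization. With missing values at the floor as well, days 8 to 25 minus day 1 turned from 0.743 to -0.590 for C1qc in mca4 and from -0.036 to 1.703 for C1qb in the radiation-induced fibrosarcoma. In each of these the 1 array without a value was set to the floor. For C1qc it was in mca4 at day 11 after 30 Gy, where the others had 93.4 and 124. For C1qb it was in the radiation-induced fibrosarcoma at day 1 after 50 Gy, where the other had 197. The cause of the shifts between settings was not tested. Where 1 value stood for a group there were fewer values, and the spread was that between groups of different doses, days or tumours.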
